A study of Homo sapiens with 16 samples.

Results

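The genes described here are 8 semaphorins, neuropilins and plexins: the secreted ligands SEMA3A, SEMA3C and SEMA3F, the co-receptors NRP1 and NRP2, and the receptors PLXNA1, PLXNB2 and PLXND1. They were taken by symbol from 60669 gene rows, and all 8 were found in both deposited tables. The list was chosen by the differences between genotypes in these same tables, which were already known, so those differences are given as a description and are no independent evidence of a direction.

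The study measured RNA in HMC3, an established human cell line known as microglial, either wild type or labelled as a knockout of METTL3. The levels of microglial markers in it are given below. METTL3 is the catalytic subunit of the enzyme that writes N6-methyladenosine (m6A) on messenger RNA. Of 16 libraries, 5 wild-type and 5 knockout ones were made by poly(A) selection with Smart-seq2, and 3 wild-type and 3 knockout ones by removal of ribosomal RNA followed by a strand-keeping kit, each from 100 ng of RNA. The labels name no treatment, no time point and no clone, and they do not say whether libraries came from separate cultures, so p-values measure only the spread between these libraries, which may be technical.

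Semaphorins are guidance cues. Those of class 3 are secreted and hold on to a neuropilin, which has no signalling domain of its own and passes the signal to a plexin of the A class or to PLXND1. Class 4 semaphorins such as SEMA4C are membrane-bound and bind plexins of the B class directly, and the cytoplasmic part of a plexin switches off Ras and Rap GTPases and so loosens adhesion and actin. NRP1 also serves vascular endothelial growth factor (VEGF) receptors, and in the brain these cues guide axons, vessels and migrating cells.

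To show what the starts of the members look like, 250 bases upstream of a RefSeq transcription start (build GRCh38.p14, given 5′ to 3′ on the strand of the gene) are printed for 4 members with an entry. They were chosen for windows sharing little sequence with annotated exons and for levels that differed most between the groups in either library type. The SEMA3F window runs past the annotated start of that gene (50155045). Those of NRP2 and PLXNB2 lie inside the annotated spans of their genes. Capitals mark the GC box, GGGCGG read on either strand, which binds factors of the Sp family.
SEMA3C, chr7:80922390-80922639, minus strand: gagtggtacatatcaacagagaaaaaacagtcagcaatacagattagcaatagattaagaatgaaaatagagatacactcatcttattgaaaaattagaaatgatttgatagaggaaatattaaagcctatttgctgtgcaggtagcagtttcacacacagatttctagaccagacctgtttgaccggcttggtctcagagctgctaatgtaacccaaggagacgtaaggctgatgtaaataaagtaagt
SEMA3F, chr3:50154808-50155057, plus strand: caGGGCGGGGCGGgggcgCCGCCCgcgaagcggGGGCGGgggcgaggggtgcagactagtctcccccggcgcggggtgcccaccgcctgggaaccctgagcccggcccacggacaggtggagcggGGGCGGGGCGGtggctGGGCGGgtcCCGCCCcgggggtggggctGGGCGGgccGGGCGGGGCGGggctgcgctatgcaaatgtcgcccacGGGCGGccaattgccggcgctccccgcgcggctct
NRP2, chr2:205682251-205682500, plus strand: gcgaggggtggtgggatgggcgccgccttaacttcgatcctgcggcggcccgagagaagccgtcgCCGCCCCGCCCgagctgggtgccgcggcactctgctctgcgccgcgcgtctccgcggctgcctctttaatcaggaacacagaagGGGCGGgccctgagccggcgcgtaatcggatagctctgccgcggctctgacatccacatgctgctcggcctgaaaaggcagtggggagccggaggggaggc
PLXNB2, chr22:50301670-50301919, minus strand: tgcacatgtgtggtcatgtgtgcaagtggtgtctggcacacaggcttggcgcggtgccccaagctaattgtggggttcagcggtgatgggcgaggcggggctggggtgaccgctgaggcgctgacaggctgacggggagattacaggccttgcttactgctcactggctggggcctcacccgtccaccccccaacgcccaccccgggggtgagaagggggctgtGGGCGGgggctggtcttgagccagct
The SEMA3F window was 82.0% G or C and held 12 GC boxes, counting those that share bases, while the windows of its other 2 RefSeq starts were 80.4% with 2 and 52.8% with none. The NRP2 window was 70.0% G or C with 3 GC boxes, and the PLXNB2 window 66.4% with 1. This SEMA3C window, the farther upstream of its 2 RefSeq starts, was 36.4% G or C with none, while the window of the other start was 77.6% G or C with 3. Among 35116 such windows of all genes the median G or C content was 58.0% and 42.6% held a GC box. Of the other motifs searched on both strands, CCAAT (in 32.0% of all windows) occurred once, in SEMA3F, and TATAAA (10.7%), TGANTCA (6.57%) and the core of the interferon-stimulated response element (3.02%) in none of the 4. A match describes the letters only, and the presence or absence of a motif was not compared with any measurement. The table held entries for 6 of the 8 members, not for SEMA3A and NRP1.

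Some facts of the libraries come before the values. Levels in the rRNA-depleted libraries are given as TPM, the length-scaled share of a library that a transcript takes, and read numbers worked back from them gave 266130 to 487243 reads per wild-type library and 512597 to 1267177 per knockout library. Knockout libraries 1 and 2 could not be told apart beyond sampling noise, which alone gives a chi-square near 1 per degree of freedom (1.02 per degree of freedom over 10120 genes, p = 0.0650, against 1.16 to 1.53 between other libraries of one genotype), so their mean was counted as 1 sample, leaving 3 wild-type and 2 knockout samples. METTL3 itself measured 31.2, 31.6 and 25.4 TPM in wild type and 39.2, 40.0 and 42.7 TPM under the knockout label (log2 difference 0.48, limma adjusted p = 0.106), so its RNA was not lower under the knockout label; the labels do not say which part of the gene was altered. In the authors' deposited table of the poly(A) libraries its log2 fold change was 0.09 (adjusted p = 0.654). Throughout, "knockout" therefore means the library labelled so. Of 12 microglial markers, 9 were listed at 0 in all 6 rRNA-depleted libraries, among them AIF1, CX3CR1, P2RY12 and TMEM119, and the summed level of all 12 was 0 to 6.47 TPM in wild type and 0.532 to 5.24 TPM in knockout. The summed level of 7 mesenchymal markers was 11650 to 14075 TPM in wild type and 5624 to 5722 TPM in knockout, and the part this has in the results below was not tested. Markers of endothelial cells, neurons and astrocytes summed to at most 5.62 TPM in any library.

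In the rRNA-depleted wild-type libraries 2 of the 3 receptors were the most abundant members, and the third, PLXND1, lay below the ligands SEMA3C and SEMA3F in mean level. PLXNB2, the receptor for SEMA4C among others, led all 31 semaphorin, neuropilin and plexin genes at 166 ± 8.2 TPM (SD, n = 3). PLXNA1, which pairs with neuropilins, followed at 44.5 ± 4.3 TPM, and its libraries overlapped those of the next gene in the family, SEMA4C. SEMA3C at 25.02 ± 8.2 TPM and SEMA3F at 21.1 ± 5.3 TPM could not be ordered, since their libraries overlapped. PLXND1 stood at 12.5 ± 3.0 TPM, overlapping SEMA3F at its upper end. NRP1 at 7.44 ± 1.8 TPM and NRP2 at 1.15 ± 0.62 TPM followed without overlapping their neighbours among the members, and SEMA3A was listed at 0 in all 3 libraries. In the knockout samples the order among the 31 genes was PLXNB2 at 116 TPM, SEMA3C at 63.0 TPM, PLXNA1 at 44.8 TPM, PLXNA3 at 28.9 TPM and NRP1 at 27.0 TPM, so SEMA3C stood at rank 6 in wild type and rank 2 in knockout, and NRP1 at ranks 15 and 5.

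**Figure D1:**
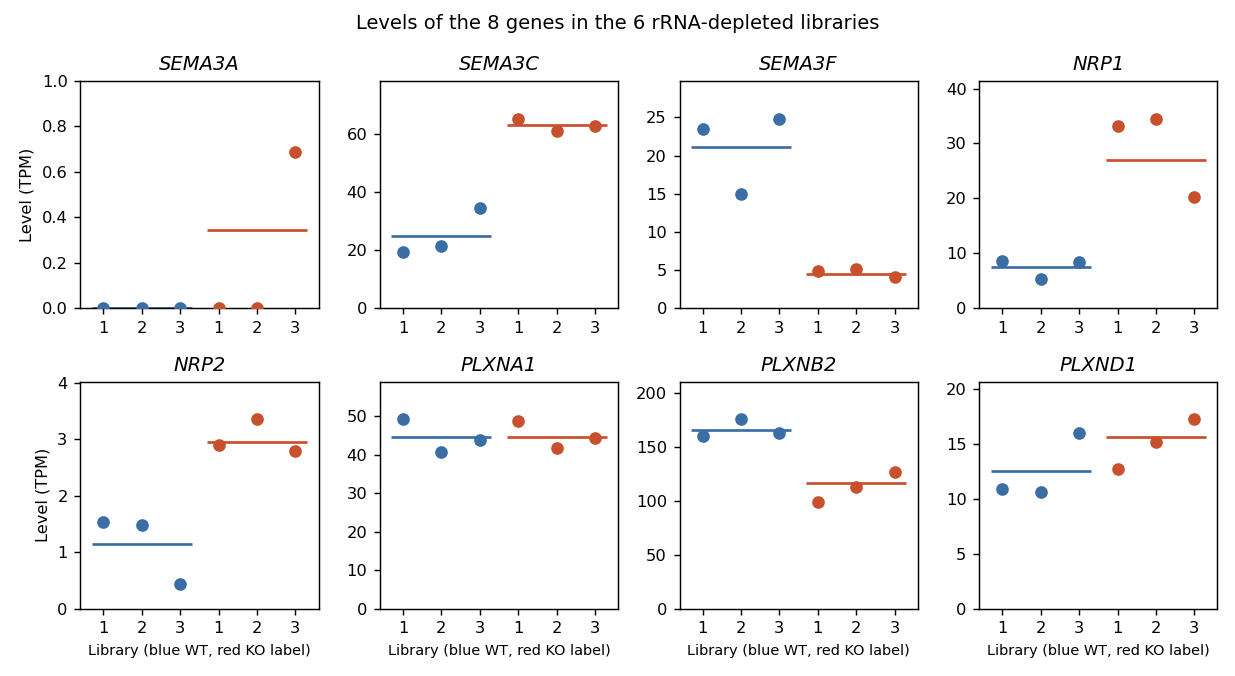
Level in TPM (vertical axes, each from 0) of the 8 genes in the 6 rRNA-depleted libraries, wild type in blue and knockout in red, with points for libraries and lines for group means, in which knockout libraries 1 and 2 count as 1 sample. SEMA3C, NRP1 and NRP2 lie higher in all 3 knockout libraries, SEMA3F and PLXNB2 lower, and the groups of PLXNA1 and PLXND1 overlap. With the trend on GC content removed, the PLXNB2 difference has the opposite sign (log2 0.40, against a median of 0.57 for all genes).

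Of the 8 genes, 7 passed the filter of 1 TPM in 3 of 6 libraries, and limma on log2(TPM + 1) put 2 higher (SEMA3C, NRP1) and 2 lower (SEMA3F, PLXNB2) in knockout at an adjusted p of 0.05. Over all 14789 genes tested, 35.3% passed, 22.9% higher and 12.4% lower, and the members were chosen with this contrast known, so nothing is read from the comparison of these shares. In 5 of the 7 the groups did not overlap, as in 62.7% of all genes tested. The median log2 difference of all genes was 0.41 in the values as deposited, so 0 on this scale is not the middle of the genes. In these bulk libraries, fewer cells carrying a transcript and less of it per cell cannot be told apart.

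SEMA3C, a secreted ligand that acts through either neuropilin (ENSG00000075223, hg38 chromosome 7, 80742538 to 80922359, minus strand), had 19.2, 21.5 and 34.4 TPM in wild type and 65.2, 61.2 and 62.8 TPM in knockout. These values rest on 13 to 36 reads in wild type and 61 to 140 in knockout. Every knockout library lay above every wild-type library, and the wild-type libraries spread more widely. The level was 2.52 times as high in knockout (log2 difference 1.34, SE 0.29, limma adjusted p = 0.0198), 0.93 above the median gene. Without knockout library 3, which leaves 1 knockout sample assumed to vary like wild type, the log2 difference was 1.35 and the adjusted p 0.154. With the trend on GC content removed the log2 difference was 0.86 (SE 0.29, adjusted p = 0.0703), which is 0.29 above the median gene on that scale.

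SEMA3F, a secreted ligand that prefers NRP2 (ENSG00000001617, hg38 chromosome 3, 50155045 to 50189075, plus strand), went the other way. It stood at 23.5, 15.0 and 24.8 TPM in wild type and at 4.86, 5.11 and 4.01 TPM in knockout, on only 3 to 20 reads per library. No knockout library reached the lowest wild-type library. The level was 4.69 times as high in wild type (log2 difference -1.98, SE 0.37, limma adjusted p = 0.0132). The call ended without knockout library 3, which leaves 1 knockout sample (log2 difference -1.85). It also ended with the GC trend removed (-1.09, limma adjusted p = 0.0811). Set against the median gene, SEMA3F lay at -2.39 as deposited and at -1.66 with that trend removed. Its antisense neighbour SEMA3F-AS1 was listed at 0 TPM in all 6 libraries.

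SEMA3A, the ligand that prefers NRP1 (ENSG00000075213, hg38 chromosome 7, 83955777 to 84492724, minus strand), was all but undetected. It was listed at 0 TPM in 5 libraries and at 0.689 TPM, which is 1 read, in knockout library 3. A count of 0 allows up to 3 reads, or 1.92 to 3.31 TPM in the wild-type libraries and 0.877 to 1.07 TPM in knockout libraries 1 and 2. It was not tested, and in the poly(A) libraries its mean count in the authors' deposited table was 0.739 with no adjusted p.

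NRP1, the co-receptor shared by class 3 semaphorins and VEGF (ENSG00000099250, hg38 chromosome 10, 33177492 to 33336262, minus strand), stood at 8.61, 5.39 and 8.31 TPM in wild type and at 33.2, 34.5 and 20.2 TPM in knockout. Knockout library 3 was the lowest of its group and still above every wild-type library. Reads per library were 6 to 16 in wild type and 36 to 145 in knockout. The level was 3.63 times as high in knockout (log2 difference 1.71, SE 0.39, limma adjusted p = 0.0240), and with the GC trend removed the call held (1.49, adjusted p = 0.0341). Without knockout library 3 the log2 difference was 2.07 and the adjusted p 0.0905. A gene on the opposite strand, AL121748.2, shares exon sequence with NRP1, and whether the authors counted by strand is not given in the sources used here.

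NRP2, the co-receptor preferred by SEMA3F (ENSG00000118257, hg38 chromosome 2, 205681990 to 205798133, plus strand), was scarce. It stood at 1.53, 1.49 and 0.431 TPM in wild type, which is 3, 2 and 1 reads, and at 2.89, 3.35 and 2.79 TPM in knockout, which is 12, 17 and 6 reads. The groups did not overlap, but the difference did not pass the test (log2 0.93, SE 0.47, limma adjusted p = 0.180), nor did it under any alternative tried. A gene on the opposite strand, AC007362.1, shares exon sequence with it.

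Among the receptors, PLXNB2 (ENSG00000196576, hg38 chromosome 22, 50274979 to 50307627, minus strand) had the most reads of all members, 123 to 298 per library. It stood at 160, 175 and 163 TPM in wild type and at 99.3, 112 and 126 TPM in knockout, with no overlap. The level was 1.43 times as high in wild type (log2 difference -0.52, SE 0.12, limma adjusted p = 0.0282), but with the GC trend removed the sign turned (log2 0.40, adjusted p = 0.0380), against a median of 0.57 for all genes on that scale. Set against the median gene it was lower on both scales, by -0.93 as deposited and by -0.17 with the trend removed. The call also ended on leaving out any 1 of the 3 wild-type libraries (adjusted p = 0.0604 to 0.0614) or knockout library 3 (0.0529).

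PLXNA1 (ENSG00000114554, hg38 chromosome 3, 126988594 to 127037392, plus strand) had nearly the same TPM in both groups, 49.2, 40.7 and 43.8 in wild type and 48.7, 41.8 and 44.3 in knockout (log2 difference 0.01, SE 0.16, limma adjusted p = 0.964). PLXND1, the plexin of endothelial guidance (ENSG00000004399, hg38 chromosome 3, 129555175 to 129606818, minus strand), stood at 10.9, 10.6 and 16.0 TPM in wild type and at 12.7, 15.2 and 17.2 TPM in knockout, overlapping groups with a log2 difference of 0.31 (SE 0.33, adjusted p = 0.491). Both passed the test with the GC trend removed, at 0.82 (adjusted p = 0.0198) for PLXNA1 and 1.26 (0.0343) for PLXND1. On that scale 4 members were called, all higher (NRP1 and all 3 plexins), where 33.5% of all genes were called and the median of all genes was 0.57. Set against that median, NRP1 lay at 0.92, PLXNA1 at 0.25 and PLXNB2 at -0.17. PLXND1 also lay above the median, but less far than NRP1. Before the median was taken off, their log2 differences were 1.26 and 1.49. Under median ratio, quantile or voom scaling both plexins had negative, uncalled differences, the lowest being -0.34 for PLXNA1.

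**Figure D2:**
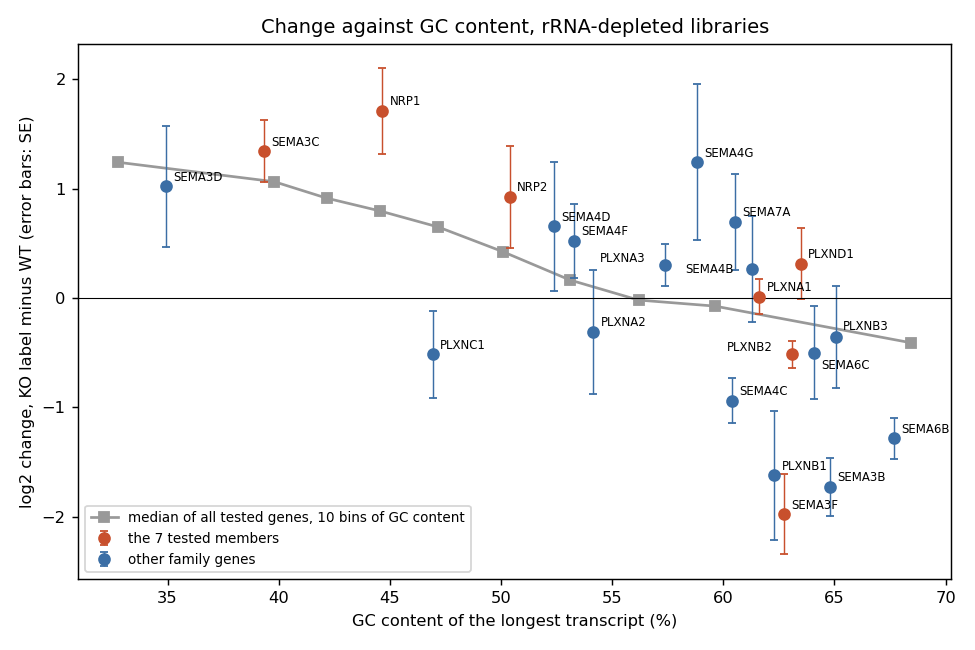
Log2 difference, knockout minus wild type, on log2(TPM + 1) (vertical axis, error bars SE) against GC content of the longest transcript (horizontal axis) for 7 members (red) and 15 other family genes (blue), with the median of all tested genes in 10 bins of GC content (grey). The grey line falls from 1.24 to -0.41, NRP1 and SEMA3C lie above it on the left, and SEMA3F lies well below it on the right.

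Members that were higher had transcripts poorer in G and C than those that were lower, and so had the genes at large. The longest transcript was 39.4% G or C for SEMA3C and 44.7% for NRP1, against 62.7% for SEMA3F and 63.1% for PLXNB2. Over 10 bins of GC content the median log2 difference of all tested genes fell from 1.24 in the poorest to -0.41 in the richest. SEMA3C at 1.34 lay beside a bin median of 1.06, and NRP1 at 1.71 beside 0.80. NRP2 at 0.93 was set against 0.42. The 4 remaining members shared the richest bin with its median of -0.41, which PLXNB2 at -0.52 lay near, PLXNA1 at 0.01 and PLXND1 at 0.31 above, and SEMA3F at -1.98 below. The part that GC content or the deeper knockout libraries have in these differences was not tested.

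Within a library, the share each gene takes of its family does not depend on a single scaling factor per library, but it does move with a trend on GC content where the genes differ in it. SEMA3C (39.4% G or C) and the other main class 3 ligands, SEMA3F (62.7%) and SEMA3B (64.8%), differ so. With that trend removed none of the 3 was called (log2 0.86, -1.09 and -0.69). Those calls set each gene against 0 and do not test the shares. Set against the median gene on that scale, SEMA3C lay at 0.29, SEMA3F at -1.66 and SEMA3B at -1.26. Shares were computed from the values as deposited only. The summed level of the 7 class 3 semaphorins was 75.8 ± 8.2 TPM in wild type (SD, n = 3) and 79.3 ± 1.2 TPM in knockout (SD, n = 2), so the sums differed by less than the wild-type SD while the makeup did not overlap. SEMA3C took 26.0%, 31.2% and 40.5% of that sum in the wild-type libraries and 80.9%, 80.2% and 78.4% in the knockout ones. SEMA3F took 31.8%, 21.8% and 29.2% in wild type and 6.03%, 6.70% and 5.01% in knockout. The third ligand of weight was SEMA3B, a close relative of SEMA3F, which took 38.7 ± 8.9% in wild type and 10.1 ± 1.5% in knockout. In the rRNA-depleted libraries the wild-type sum was thus spread over 3 ligands, unevenly so in library 2 (21.8% SEMA3F to 47.0% SEMA3B), and the knockout sum was mostly SEMA3C. The poly(A) libraries did not show such a spread: over both genotypes together, the authors' deposited mean counts per kilobase of exon were 43.0 for SEMA3C, 1.44 for SEMA3B and 0.599 for SEMA3F.

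**Figure D3:**
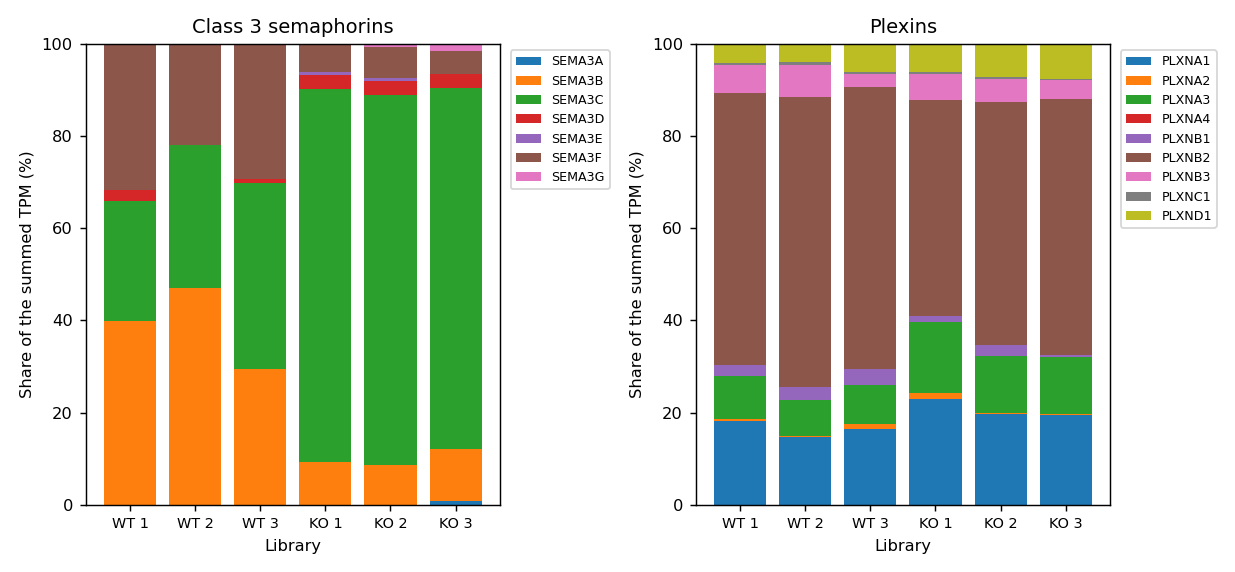
Share of each gene (stacked bars, percent of the summed TPM, vertical axis from 0) within the class 3 semaphorins (left) and the plexins (right) in each of the 6 rRNA-depleted libraries. SEMA3C fills 78.4% to 80.9% of the left-hand bars in knockout and 26.0% to 40.5% in wild type, while PLXNB2 is the widest band of every right-hand bar.

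The 9 plexins together summed to 272 ± 6.2 TPM in wild type and 220 ± 10 TPM in knockout. PLXNB2 took 61.1 ± 2.0% of this in wild type and 52.7 ± 4.1% in knockout. PLXNA1 took 16.4 ± 1.8% and 20.4 ± 1.3%, and PLXND1 4.62 ± 1.2% and 7.08 ± 0.73%. The neuropilins summed to 8.59 ± 1.6 TPM in wild type and 30.0 ± 9.9 TPM in knockout, and NRP1 held 86.1 ± 8.4% and 89.7 ± 2.6% of that. The share of NRP1 differed by less than its wild-type SD, while the sum of the pair did not overlap between the groups.

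For the poly(A) libraries only the authors' deposited table of the comparison is at hand, so these values carry no SD per group. Its sign was read as positive for higher in knockout, from its name and because 91.5% of 177 genes past both tests and a log2 size of 1 then had the same sign as in the rRNA-depleted libraries. An adjusted p was listed for 7 members and 2 passed 0.05, both higher and both neuropilins, where 19.9% of 14009 genes passed, 9.55% higher and 10.3% lower. NRP1 had a log2 fold change of 0.58 (SE 0.17, adjusted p = 0.00448 in the authors' deposited table) at a mean count of 78.3. NRP2 had the larger change, 1.72 (SE 0.47, adjusted p = 0.00276 in the authors' deposited table), at a mean count of 11.1.

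The ligands and plexins did not pass in the authors' deposited table. SEMA3C had a log2 fold change of 0.22 there (SE 0.11, adjusted p = 0.178) at a mean count of 270, the deepest of the members. SEMA3F had -0.58 in the authors' deposited table (SE 0.69, adjusted p = 0.629) at a mean count of 2.89. The plexins were at 0.04 for PLXNB2 (SE 0.13), -0.15 for PLXNA1 (SE 0.27) and -0.66 for PLXND1 (SE 0.34), with adjusted p of 0.894, 0.763 and 0.176 in the authors' deposited table. Whether a change differed between the library types was not tested. Per kilobase of exon, the authors' mean counts put SEMA3C first of the 31 family genes at 43.0, followed by PLXNB2 at 11.3, SEMA4F at 9.16 and NRP1 at 6.79, means that pool both genotypes; in the rRNA-depleted libraries SEMA3C was at rank 6 in wild type and rank 2 in knockout.

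**Figure D4:**
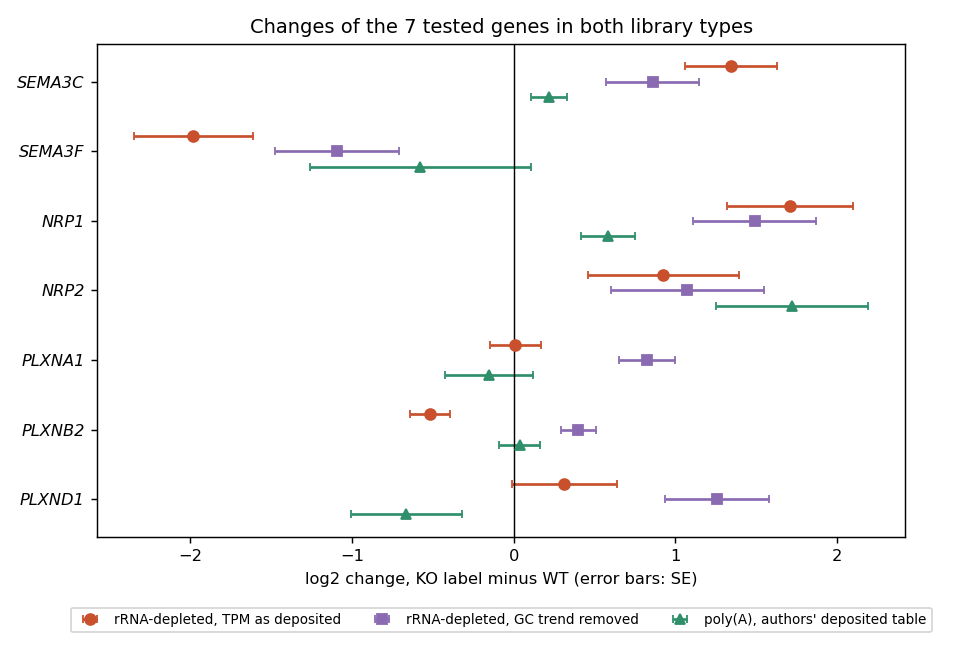
Log2 difference, knockout minus wild type, with SE bars (horizontal axis) for the 7 tested genes in the rRNA-depleted libraries as deposited (circles), with the GC trend removed (squares), and in the authors' deposited poly(A) table (triangles). NRP1 and NRP2 lie to the right of 0 in all 3, from 0.58 to 1.72, while PLXNB2 lies at -0.52, 0.40 and 0.04.

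Of the 23 other semaphorin and plexin genes, 15 were tested in the rRNA-depleted libraries and 3 passed, all lower in knockout (SEMA3B, SEMA4C and SEMA6B), where 35.3% of all genes were called and 12.4% were lower. Under quantile scaling and with voom 4 passed, all lower, the added gene being PLXNB1 (adjusted p = 0.0358 and 0.00264). Their median log2 difference was -0.31, against 0.41 for all genes. SEMA3B stood at 29.5, 32.3 and 24.9 TPM in wild type and at 7.55, 6.65 and 8.96 TPM in knockout (log2 difference -1.73, SE 0.27, limma adjusted p = 0.00785), and it was lower in the authors' deposited poly(A) table too (-1.09, SE 0.40, adjusted p = 0.0374). SEMA4C, a ligand of PLXNB2, stood at 39.1, 35.3 and 46.7 TPM in wild type and at 22.9, 21.4 and 18.9 TPM in knockout (-0.94, SE 0.21, limma adjusted p = 0.0225). SEMA6B, a membrane-bound ligand of A-class plexins, stood at 36.9, 39.9 and 40.7 TPM in wild type and at 16.0, 16.8 and 14.6 TPM in knockout (-1.28, SE 0.19, limma adjusted p = 0.00677). In the authors' deposited poly(A) table SEMA4C was at 0.12 (SE 0.32, adjusted p = 0.856). SEMA6B had a mean count of only 0.257 there and no adjusted p. Per kilobase it ranked 27 of the 31 family genes there, against rank 4 in the rRNA-depleted wild type. None of the 3 passed with the GC trend removed (-0.69, -0.21 and -0.02), where 1 other gene, PLXNA3, was called, and it was higher (0.89, adjusted p = 0.0260). On that scale 33.5% of all genes were called and their median was 0.57. SEMA4C was also lost without knockout library 3 (adjusted p = 0.125) or without wild-type library 1 or 3 (0.0562 and 0.0556). The 12 that did not pass, among them PLXNB1 at -1.62 (limma adjusted p = 0.0879) and SEMA4G at 1.24 (0.232), had SEs of 0.19 to 0.71. SEMA5B, SEMA6A and PLXNA4 were listed at 0 in all 6 libraries.

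The partners of these genes, 48 genes listed by known function, included 39 that were tested in the rRNA-depleted libraries. Of these, 16 were higher and 6 lower in knockout, where 35.3% of all genes were called (22.9% higher, 12.4% lower), with a median log2 difference of 0.59 against 0.41 for all genes. With the GC trend removed 19 were higher and 1 lower, where 33.5% of all genes were called. The median log2 difference of all genes was 0.57 on that scale, so 0 was not the middle of the genes there either. RAC1, the small GTPase that plexins draw into actin remodelling, stood at 31.8, 43.2 and 26.9 TPM in wild type and at 156, 144 and 124 TPM in knockout (log2 difference 2.003, SE 0.24, limma adjusted p = 0.00407). Other genes that rose were the VEGF receptor ligand VEGFC (1.98), the integrin subunit ITGB1 (1.71), the receptor kinase MET that pairs with B-class plexins (1.63), DPYSL2, a collapsin response mediator (1.50), and RRAS, a GTPase that plexins switch off (1.43). RAC1, ITGB1, DPYSL2 and RRAS did not pass without knockout library 3, with adjusted p between 0.0574 and 0.156, and 2 of the 39 passed then in all. RRAS also missed under median ratio scaling (1.08, adjusted p = 0.0530). FURIN, a protease that processes class 3 semaphorins, was higher as well (0.77), but not under median ratio, quantile or voom scaling (0.43 to 0.49), nor without wild-type library 1 or 3 or knockout library 2 or 3 (adjusted p = 0.0628 to 0.150).

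Those that fell were the kinase LIMK2 (-1.58), VEGFA (-1.34), DPYSL4 (-1.17), the adaptor GIPC1 (-0.79), the VEGF receptor FLT4 (-0.77) and the kinase LIMK1 (-0.69). None of these 6 passed without knockout library 3 (adjusted p = 0.0551 to 0.131). VEGFA, DPYSL4, FLT4 and LIMK1 also missed without wild-type library 1 (0.0529 to 0.102), FLT4 and LIMK1 without wild-type library 3 (0.0922 and 0.0729), and FLT4 without knockout library 1 (0.0502) or without the filter (0.0553). VEGFA, the ligand that competes for NRP1, stood at 20.6, 24.4 and 17.4 TPM in wild type and at 8.59, 6.45 and 7.61 TPM in knockout, with no overlap (SE 0.29, limma adjusted p = 0.0213). With the GC trend removed VEGFA was at -0.85 (adjusted p = 0.0743), DPYSL4 at -0.27 and LIMK1 at -0.23, none of them called. GIPC1, which binds the tail of the neuropilins, and FLT4 turned sign on that scale, to 0.26 and 0.06, neither called. Of the 48, 41 had an adjusted p in the authors' deposited poly(A) table, of which 3 were higher and 4 lower, where 19.9% of all genes passed (9.55% higher, 10.3% lower). Among the partners named above, only RRAS passed there, in the opposite direction. The others higher in the rRNA-depleted libraries stood at 0.29 (RAC1), 0.48 (VEGFC), -0.14 (ITGB1), 0.04 (MET), 0.17 (DPYSL2) and -0.76 (FURIN). Those lower stood at -0.10 (LIMK2), 0.16 (VEGFA), -0.48 (DPYSL4), -0.17 (GIPC1), -0.22 (FLT4) and 0.74 (LIMK1). Their adjusted p in the authors' deposited table was 0.0547 to 0.904. RRAS and CFL1, named after their values were seen, were lower in the authors' deposited poly(A) table (-0.54 and -0.44, adjusted p = 0.0180 and 4.87e-07) and higher in the rRNA-depleted libraries (1.43 and 0.88, limma adjusted p = 0.0209 and 0.0229). The other partners past 0.05 in the authors' deposited table were DPYSL3 (0.76), RHOA (0.33) and ADAM10 (0.24), higher, and FES (-3.65) and RAP1B (-0.32), lower. Their direction in the rRNA-depleted libraries is not given here.

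The letters GGACT, the commonest form of the sequence that METTL3 methylates, were counted in the longest annotated transcript of each member. No m6A was measured in these files, and a match is no methylated site. SEMA3A held 2 and SEMA3C 6, SEMA3F 3, NRP1 7, NRP2 10, PLXNA1 14, PLXNB2 6 and PLXND1 10. Per kilobase the members ranged from 0.243 in SEMA3A to 1.54 in PLXNA1, with 0.789 in SEMA3F, 0.940 in PLXNB2, 1.16 in SEMA3C, 1.19 in NRP1 and 1.50 in NRP2. The median of 11784 protein-coding genes tested was 0.922 (quartiles 0.575 and 1.36), and 6.35% of them held none.

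The genes whose pattern over the 6 rRNA-depleted libraries was most like that of PLXNB2, the member with the most reads, were PRPF6, a splicing factor, at a root mean square difference of 0.0387 on the centred log2 scale, SLC41A1, a magnesium transporter, at 0.0651 and MYL6, a myosin light chain, at 0.0721, among 11862 genes of at least 5 TPM. PRPF6 stood at 447, 462 and 460 TPM in wild type and at 276, 304 and 335 TPM in knockout; as with PLXNB2, knockout library 3 was the highest of its group.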

How the data were processed

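RNA of the HMC3 line was measured in 5 wild-type and 5 METTL3 knockout poly(A) libraries and in 3 and 3 rRNA-depleted ones, grouped by the titles in the labels. Per the submitters' processing notes, Trimmomatic, STAR, DESeq2 and hg38 were used; versions, counting tool and strand setting are not given in the sources used here. The deposited TPM table holds the rRNA-depleted libraries. The deposited comparison table of the poly(A) libraries holds a mean normalized count (taken as a signal), log2 fold changes with standard errors, a test statistic (a score) and p-values, per the file headers, with no values per library; no retest was made.

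Reads were recovered from TPM with GENCODE 29 exon lengths, which matched 93.8% of 60669 gene IDs; 90.9% of 91124 values above 0 came out whole within 0.02 reads. The test was limma 3.58.1 (R 4.3.3, trended variance, two-sided, Benjamini-Hochberg over 14789 genes) on log2(TPM + 1), for genes of at least 1 TPM in 3 libraries. In simulated reads with 200 genes changed by a log2 of 2, it recovered 50 and made 11 false calls. Among genes of at least 5 reads on average it recovered 123 of 200 with 3 false calls. With 4000 genes changed it recovered 2504 with 367 false calls. The simulated libraries had no GC trend and little spread beyond sampling noise, and knockout libraries 1 and 2 were drawn independently. These counts therefore do not give the error rate in the real libraries. A fold change on this scale understates that of low genes. No pairing by shared replicate numbers was seen, though sampling noise could hide one. The GC trend was a lowess fit per library. Members and gene lists were chosen with earlier results of these data known. Named were the members, the tested family genes, and of the signalling list up to 6 called genes per direction plus VEGFA, GIPC1 and FURIN. Promoter sequences are from RefSeq. Alternatives covered samples, replicate block, pseudocount, filter, scaling, GC trend, voom on recovered reads, threshold and leaving out each library.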

Additional observations from a re-analysis of the deposited data

How the results depend on the processing

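The 4 members called in the rRNA-depleted libraries stayed at 4, with 2 higher and 2 lower, under both other pseudocounts, without the filter, under median ratio and quantile scaling, with voom on recovered reads and with 6 separate libraries. Leaving out 1 library gave 0 to 4, the 0 without knockout replicate 3, where a single knockout sample remained. A threshold of 0.01 gave 0, and removing the GC trend gave 4, all higher. Counts of the other family genes ranged from 2 to 3 on leaving out 1 library and fell from 3 to 1 with the GC trend removed. Those of the signalling list ranged from 2 to 23, were 20 (19 higher, 1 lower) with the GC trend removed, and were 14 (8 higher, 6 lower) under median ratio scaling against 22. In the poly(A) table a log2 limit of 1 left 1 member of 2. Signs turned for PLXNA1 (median ratio -0.34, quantile -0.17, voom -0.27, leaving out 1 library -0.051 to 0.083, negative without wild-type replicate 2 or knockout replicate 1, where it was -0.045), PLXND1 (-0.017, -0.086 and -0.081 under the same 3 scalings), and with the GC trend removed for PLXNB2 (0.40), GIPC1 (0.26) and FLT4 (0.061); the cause was not tested. The median of all genes was 0.41 as deposited, 0.11 under median ratio scaling, 0.09 under quantile, 0.03 with voom and 0.57 with the GC trend removed. With the replicate number as a block, 4 members, 3 other family genes and 25 of the signalling list were called, against 4, 3 and 26 for the same 6 libraries without it. Deviations of same-numbered libraries correlated at -0.02 to 0.02 and those of other-numbered ones at -0.04 to 0.03. No pairing by number was thus seen, though sampling noise could hide one. Depth limits SEMA3A most, at 0 to 1 reads per library and not tested, and among the tested members NRP2 and SEMA3F, at 1 to 17 and 3 to 20 reads.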
